A study of Homo sapiens with 6 samples.

Results

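Transcripts of nucleolar ribosome biogenesis genes and of MYC were examined in MDA-MB-231 cells, a human breast cancer cell line that lacks oestrogen receptor, progesterone receptor and HER2 amplification. The cells had received 50 µM TCI04, whose labels give a code name and nothing of its structure, for 48 h (3 arrays), or phosphate-buffered saline (PBS) for the same time (3 arrays). No genotype or other agent separates the groups. Total RNA was measured on Affymetrix arrays, and the values were MAS5 signals, which summarise the probes of a probe set on a linear scale. The members were a list of 45 named genes. A member was measured where at least 1 probe set had its symbol as the only symbol in the platform annotation, and it was represented by the probe set with the highest mean over the 6 arrays. This held for 38 of the 45 members, out of 13679 genes tested, and the mean signal is the only measured value that the choice of probe set used. DDX18, GNL3 and EBNA1BP2 had no listed probe set of their own. The probe sets of NOP56, DKC1, BOP1 and PPAN also carry other gene symbols and are named only.

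Ribosomal RNA is transcribed in the nucleolus by RNA polymerase I and is then modified, cut and folded by a large set of proteins, together with small nucleolar RNAs, into the small and the large ribosomal subunit. MYC is a transcription factor that binds DNA as a pair with MAX, mostly at the E-box CACGTG. Many nucleolar assembly factors are among its best known targets, and MYC is a common driver of ribosome production in cancer cells. The members were ordered by role into MYC itself, RNA polymerase I transcription, small nucleolar ribonucleoproteins (snoRNPs), small subunit assembly, large subunit assembly, and abundant nucleolar proteins with several functions.

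The arrays share a trimmed mean signal of 500.1, so they had been scaled alike. The markers of this cell line (VIM, CD44, EGFR, AXL, CAV1 and LGALS1) were 6 of 6 above the filter on low signals, and their summed signal was 106998 to 111623 in the TCI04 arrays and 107112 to 115693 in the PBS arrays. Of 8 luminal breast markers, 6 passed the filter, among them KRT19 at 873 to 1718 in the TCI04 arrays and 1424 to 1793 in the PBS arrays, GATA3 and EPCAM. ESR1, which encodes the oestrogen receptor, lay at 18.5 to 39.7 in the TCI04 arrays and 20.9 to 94.3 in the PBS arrays, and PGR and CDH1 did not pass the filter. Among markers of other cells, 1 of 3 leukocyte genes, 2 of 4 endothelial genes and 2 of 5 fibroblast genes passed it. PTPRC, CDH5 and COL1A2 did not. TCI04 replicate 3 stood apart from the other arrays. Its ratio of the 3' to the 5' control probe set of ACTB was 3.33, against 1.70 and 1.71 in the other TCI04 arrays and 1.64 to 1.72 in the PBS arrays, so its signal from the 5' end of this transcript was low. Leaving it out turned the sign of 9 of the 38 measured members and moved the log2 fold change of a further 14 by over 1.5 times.

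None of the 38 measured members passed the adjusted threshold of 0.05 in limma in either direction (smallest adjusted p = 0.697). Over the whole array, 1 of 32746 probe sets passed it with a lower signal in TCI04-treated cells (0.00305%) and 0 passed it with a higher one. At an unadjusted p under 0.05, 3 members (NOC2L, POLR1A and NPM1) were lower and 0 were higher, where 4.15% of all tested genes were lower and 2.9% higher. In fold terms the members lay close to no change: the 95% interval of 34 of the 38 (89.5%) stayed within 1.5-fold in either direction, which held for 66.5% of all genes. Bright genes have narrower intervals, and among the 3 brightest deciles of genes this held for 26 of 27 members (96.3%) and for 99.1% of the genes. The direction was uneven but small. The mean was lower in TCI04-treated cells for 26 members (68.4%, against 50.6% of all tested genes) and higher for 12, with a median log2 fold change of -0.056, against -0.002 over all genes. Log2 fold changes are of the signal plus a fixed offset, TCI04 minus PBS, and understate the change of dim genes. In RNA from bulk cells, less transcript per cell and fewer cells with the transcript cannot be told apart.

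**Figure D1:**
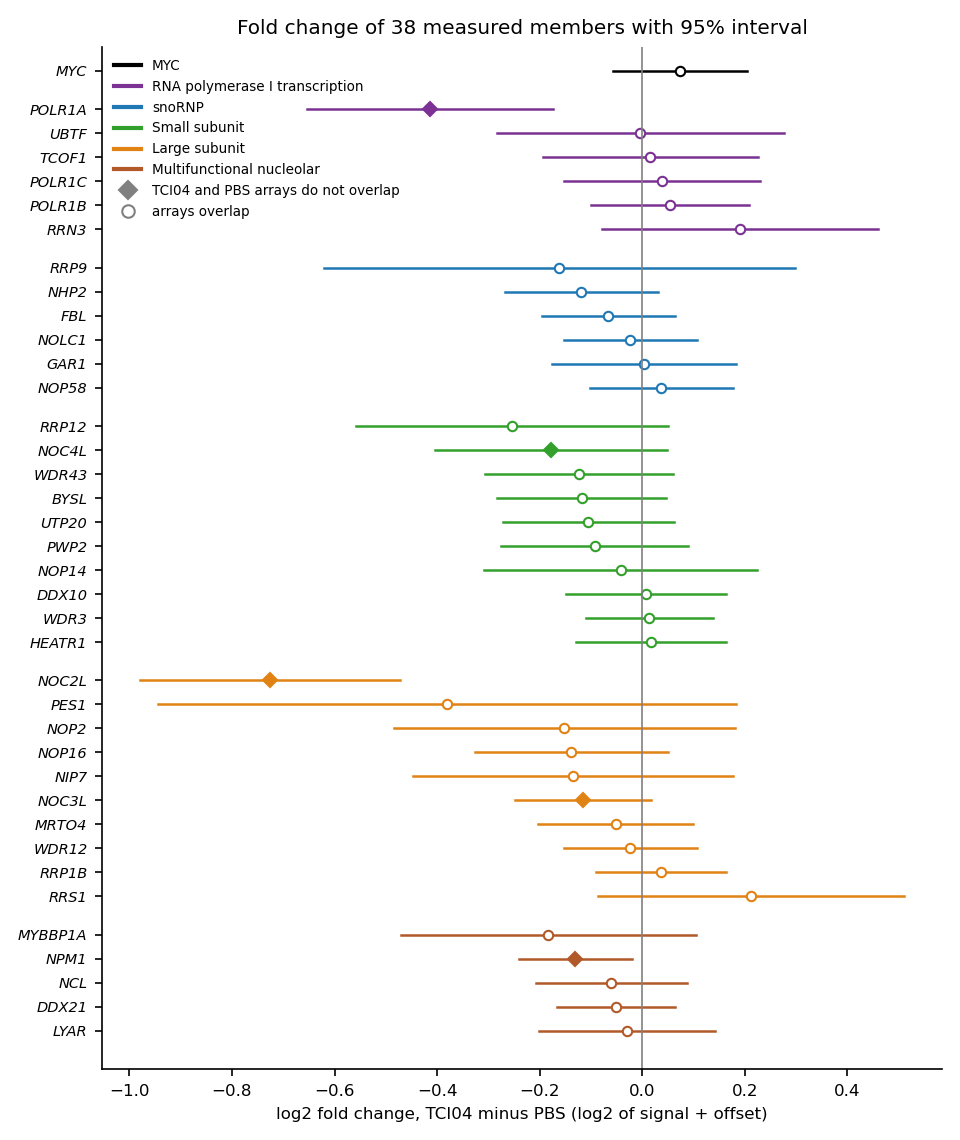
Log2 fold change (TCI04 minus PBS) of the 38 measured members, grouped by role, with the 95% interval of the limma fit as a bar and a filled diamond where the 3 TCI04 arrays do not overlap the 3 PBS arrays. Of the 5 diamonds all lie left of 0, with NOC2L farthest at -0.73, and the bars of 35 members cross 0.

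MYC had signals of 4814, 4751 and 5121 in the TCI04 arrays, against 4524, 4790 and 4641 in the PBS arrays. TCI04 replicates 1 and 3 lay above every PBS array and replicate 2 did not, so the groups overlapped. The means were 4895 ± 198 with TCI04 and 4651 ± 133 with PBS (SD, n = 3 arrays each). The log2 fold change was 0.073 with a 95% interval from -0.058 to 0.21 (limma, adjusted p = 0.776). Without TCI04 replicate 3 it was 0.040. Its partner MAX gave 0.028, and -0.038 without that array.

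The promoter windows of the members were read for the E-box because MYC binds it. RefSeq windows (GRCh38.p14), from 250 bases before to 50 bases from the annotated start on, were matched by symbol for 36 of the 45 members. Where a gene had several listed windows, the first was read. CACGTG reads the same on both strands and overlaps no other motif searched. It stood in 13 of the 36 windows (36.1%), against 2030 of the 27305 windows of all genes (7.43%). With every listed window of a gene counted, it stood in 17 of these members and 8.77% of all genes. Among the 11043 tested genes with a window the share was 9.92%. In 12 of the 13 member windows the motif lay within 50 bases of the start, where 2.87% of all genes have one. These 12 lay between positions -10 and +41 (the start is +1 and there is no position 0). The following 100-base windows run 5' to 3' on the strand of the gene, from 70 bases before the start to 30 bases from it on, with the E-box in capitals. They are shown because the motif lies close to the start in genes of different roles.
FBL (chr19:39846350-39846449, minus strand): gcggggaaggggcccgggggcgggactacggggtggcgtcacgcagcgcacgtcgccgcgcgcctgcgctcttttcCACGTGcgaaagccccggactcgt
RRP9 (chr3:51941875-51941974, minus strand): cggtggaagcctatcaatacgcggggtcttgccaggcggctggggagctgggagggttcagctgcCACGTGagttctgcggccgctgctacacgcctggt
WDR43 (chr2:28894597-28894696, plus strand): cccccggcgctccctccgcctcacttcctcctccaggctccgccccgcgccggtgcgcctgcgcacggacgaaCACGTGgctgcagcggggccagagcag
UTP20 (chr12:101280035-101280134, plus strand): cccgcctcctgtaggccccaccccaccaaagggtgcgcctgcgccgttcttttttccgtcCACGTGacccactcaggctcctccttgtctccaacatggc
NOC3L (chr10:94362910-94363009, minus strand): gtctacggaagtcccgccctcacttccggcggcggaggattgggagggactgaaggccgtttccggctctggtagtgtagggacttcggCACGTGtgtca
PES1 (chr22:30591881-30591980, minus strand): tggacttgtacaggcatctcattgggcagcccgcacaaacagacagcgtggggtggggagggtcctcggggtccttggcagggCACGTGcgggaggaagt

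The 3 members with an unadjusted p under 0.05 have no CACGTG anywhere in the first listed 300-base windows that were read. The same stretch is shown for them as a contrast.
NOC2L (chr1:959227-959326, minus strand): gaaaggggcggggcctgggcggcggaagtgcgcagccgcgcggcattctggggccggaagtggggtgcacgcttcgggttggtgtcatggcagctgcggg
POLR1A (chr2:86105857-86105956, minus strand): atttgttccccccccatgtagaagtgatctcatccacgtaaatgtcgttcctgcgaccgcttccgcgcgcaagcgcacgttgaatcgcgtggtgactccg
NPM1 (chr5:171387779-171387878, plus strand): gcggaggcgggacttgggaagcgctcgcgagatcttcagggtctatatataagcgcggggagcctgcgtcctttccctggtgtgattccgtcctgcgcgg

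Of the 12 measured members with CACGTG, 12 had a lower mean in TCI04-treated cells, with log2 fold changes from -0.38 (PES1) to -0.042 (NOP14) and a median of -0.117. Of the 19 measured members with a window and no CACGTG, 12 had a lower mean and the median was -0.029. A member with the motif only in another listed window counts as without it. Among all tested genes the medians were -0.002 with and 0.001 without CACGTG. This split was made after the members' values had been seen and is given without a test. It rested on TCI04 replicate 3: without that array 8 of the 12 were lower, with RRP9, NOP14, NOP2 and PES1 turned, and the medians were -0.041 with and -0.034 without CACGTG. With arrays centred on their medians, which moves all genes upward, 3 of the 12 were lower, and the medians were 0.043 with and 0.130 without CACGTG. A match is only a description of letters, and no binding was measured.

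**Figure D2:**
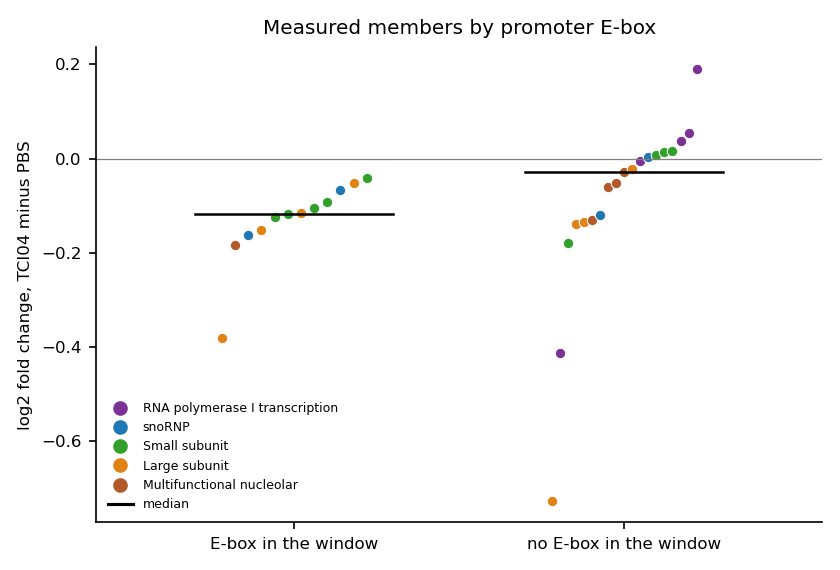
Log2 fold change (TCI04 minus PBS, all 6 arrays) of measured members with and without CACGTG in the first listed 300-base promoter window. Each point is 1 member coloured by role, with the median as a line. All 12 points on the left lie below 0 (median -0.117), while the 19 on the right spread to both sides (median -0.029).

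Of the roles with several genes, RNA polymerase I transcription had the fewest lower members, 2 of 6, and its median log2 fold change was 0.027. This direction depended on the probe set used: with the mean of each gene's probe sets 4 of 6 were lower and the median was -0.078, and without _x_at and _s_at probe sets it was -0.035 over 4 genes. POLR1A, the largest subunit of RNA polymerase I, had signals of 393, 427 and 374 in the TCI04 arrays, against 553, 496 and 552 in the PBS arrays. All 3 TCI04 arrays lay below all 3 PBS arrays. The means were 398 ± 26.5 with TCI04 and 534 ± 32.7 with PBS (SD, n = 3 each). By the log2 fit of signal plus offset, the level with TCI04 was 1.33-fold lower. On the log2 scale this was -0.41 ± 0.11 (standard error), which did not pass the adjusted threshold (limma, adjusted p = 0.697). The other probe sets of POLR1A differed in direction: one gave -0.48, also without overlap, and one gave 0.33. POLR1B, the second catalytic subunit, had signals of 1927, 1895 and 1974 with TCI04, against 1916, 1756 and 1915 with PBS, a log2 fold change of 0.054, while its other probe sets gave -0.35 (without overlap), -0.17 and 0.12. RRN3, which brings the polymerase to the promoter of ribosomal DNA, had 1931, 1822 and 1723 with TCI04, against 1948, 1329 and 1570 with PBS. Its PBS arrays spanned the TCI04 values, and the log2 fold change was 0.19, with 0.060 to 0.33 when 1 array was left out (lowest without PBS replicate 2, highest without PBS replicate 1). POLR1C, which RNA polymerase III shares, gave 0.038, the promoter-binding factor UBTF gave -0.004 and TCOF1, which encodes the nucleolar phosphoprotein treacle, gave 0.016. The other tested probe sets of UBTF gave -0.36, -0.27 and -0.13, and that of TCOF1 gave -0.16 without overlap.

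Of the 6 measured snoRNP proteins, 4 had a lower mean with TCI04 and 0 were without overlap (median -0.044). NHP2, a core protein of the H/ACA particles that guide pseudouridylation, had signals of 12964, 13820 and 12016 with TCI04, against 13098, 14402 and 14627 with PBS, a log2 fold change of -0.12, and -0.067 without TCI04 replicate 3. NOLC1, a chaperone of both particle classes, had 12090, 12963 and 13503 with TCI04, against 12615, 13495 and 13042 with PBS. The groups overlapped for both genes. NOLC1 gave -0.023 here, while its other probe sets gave -0.31 and -0.15. FBL, the methyltransferase of the C/D particles, gave -0.066, and its partner NOP58 gave 0.037. The U3 snoRNP protein RRP9 gave -0.16, and 0.018 without TCI04 replicate 3, with a mean of 177 ± 47.9 with TCI04 and 196 ± 26.0 with PBS (SD, n = 3 each). GAR1, which sits beside NHP2 in H/ACA particles, gave 0.004.

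Small subunit factors had a lower mean with TCI04 for 7 of 10 genes, with a median of -0.099 and 1 without overlap. NOC4L, which works with NOP14 in small subunit assembly in yeast, had signals of 483, 443 and 447 with TCI04, against 551, 504 and 503 with PBS. The TCI04 arrays lay below the PBS arrays, and the log2 fold change was -0.18 (limma, adjusted p = 0.707). WDR3 and UTP20, components of the early small subunit precursor, had the highest signals of the role. WDR3 had 5648, 5669 and 5638 with TCI04, against 5818, 5554 and 5430 with PBS, a log2 fold change of 0.014. UTP20 had 3038, 3082 and 3593 with TCI04, against 3412, 3545 and 3462 with PBS. TCI04 replicates 1 and 2 of UTP20 were below every PBS array and replicate 3 was above them, for a log2 fold change of -0.11 with replicate 3 and -0.18 without it. The others ranged from -0.25 for RRP12, which takes part in export of the small subunit, to 0.017 for HEATR1, a factor that links transcription and processing. Between them lay WDR43 at -0.12, BYSL at -0.12, PWP2 at -0.093, NOP14 at -0.042 and the helicase DDX10 at 0.007. Other tested probe sets gave -0.024 to 0.43 for HEATR1, -0.30 and 0.14 for RRP12, -0.49 for PWP2 and -0.034 for WDR3.

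Large subunit factors had a lower mean for 8 of 10 measured genes, with a median of -0.125 and 2 without overlap, and they held both the lowest and the highest fold change of all members. NOC2L, a nucleolar protein of the large subunit pathway that also inhibits histone acetyltransferases, had signals of 295, 330 and 283 with TCI04, against 492, 494 and 536 with PBS. The gap between the groups exceeded the spread within either. The means were 303 ± 24.6 with TCI04 and 507 ± 25 with PBS (SD, n = 3 each). By the log2 fit of signal plus offset, the level with TCI04 was 1.65-fold lower. On the log2 scale this was -0.73 ± 0.11 (standard error), and the 95% interval ran from -0.98 to -0.47. NOC2L still failed the correction over all probe sets (limma, adjusted p = 0.697, unadjusted p = 6.87e-05). Its only other probe set lay below the filter.

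NOC3L, a partner of the NOC family in large subunit assembly, had signals of 4956, 4985 and 5035 with TCI04, against 5562, 5081 and 5597 with PBS. The groups were separated only by the gap between 5035 and 5081, and the log2 fold change was -0.12 (limma, adjusted p = 0.702). RRP1B had 7079, 6946 and 7153 with TCI04, against 6649, 6741 and 7268 with PBS, a log2 fold change of 0.037. NOP16 had 4890, 5003 and 5970 with TCI04, against 5977, 6100 and 5345 with PBS. Its log2 fold change was -0.14, or -0.23 without TCI04 replicate 3, and its 3 other probe sets gave -0.16 to -0.12. RRS1, which helps to place the 5S particle in the large subunit, had the highest fold change of the members, 0.21 with a 95% interval from -0.086 to 0.51, and 0.093 to 0.35 when 1 array was left out (lowest without TCI04 replicate 2, highest without PBS replicate 2).

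PES1, WDR12 and BOP1 form the PeBoW complex of large subunit assembly, of which PES1 and WDR12 were measured. PES1, given in full after its values were seen, had signals of 1777, 1727 and 763 with TCI04, against 1686, 1788 and 1726 with PBS. Only TCI04 replicate 3 was low, and the log2 fold change was -0.38 with this array and 0.016 without it. WDR12 gave -0.023. The rRNA methyltransferase NOP2 gave -0.15, and 0.030 without TCI04 replicate 3. NIP7 gave -0.14, or -0.045 without that array, and its other probe set gave 0.060, and MRTO4, which resembles the stalk protein P0, gave -0.052.

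**Figure D3:**
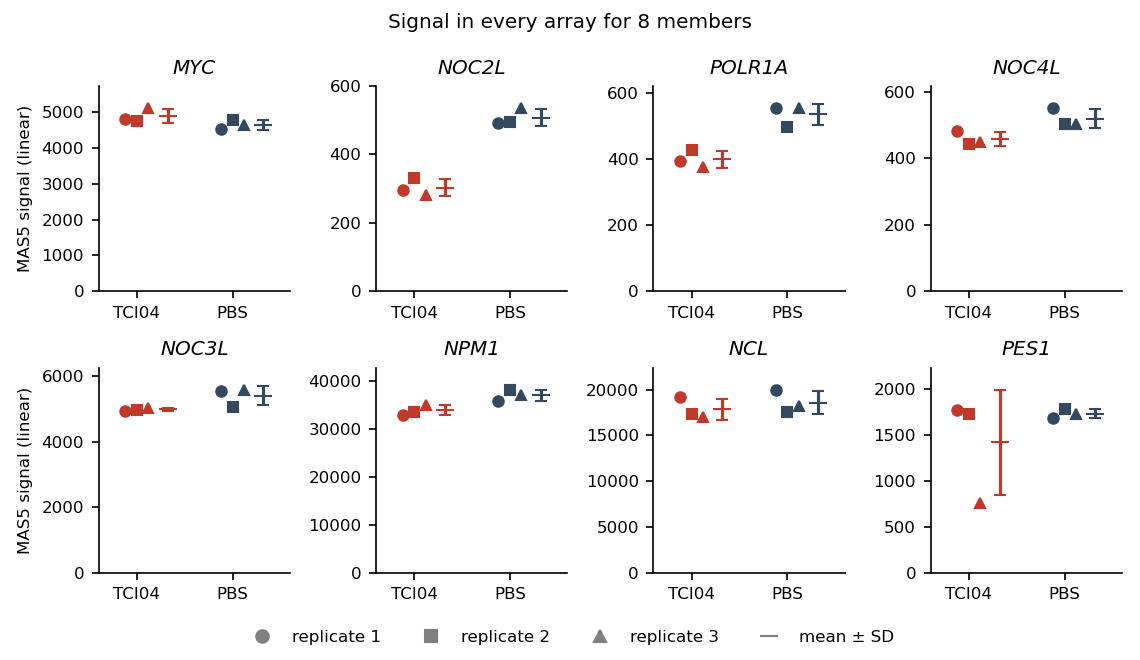
MAS5 signal (linear scale from 0) of 8 members in each array, with TCI04 at the left and PBS at the right of each panel, 1 marker shape per replicate, and the mean ± SD (n = 3) beside the points. NOC2L, POLR1A, NOC4L, NOC3L and NPM1 separate the groups, MYC and NCL overlap, and the low mean of PES1 with TCI04 comes from replicate 3 at 763.

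All 5 multifunctional nucleolar proteins had a lower mean with TCI04 (median -0.060). NPM1, the histone and ribosomal protein chaperone nucleophosmin, had signals of 32982, 33592 and 35027 with TCI04, against 35890, 38202 and 37135 with PBS. The groups did not overlap. The means were 33867 ± 1050 with TCI04 and 37076 ± 1157 with PBS (SD, n = 3 each), a log2 fold change of -0.13 (limma, adjusted p = 0.697). Both other probe sets of NPM1, at -0.074 and -0.009, overlapped between the groups. The helicase DDX21 had 17632, 18194 and 18141 with TCI04, against 17785, 19257 and 18886 with PBS, a log2 fold change of -0.051. The abundant RNA-binding protein NCL, nucleolin, gave -0.060, LYAR gave -0.029, and MYBBP1A, first found as a partner of the MYB protein, gave -0.18, or -0.054 without TCI04 replicate 3. The dimmer probe set of MYBBP1A gave -0.98 without overlap, with 128, 112 and 54.95 in the TCI04 arrays and 195, 170 and 221 in the PBS arrays (limma, adjusted p = 0.697), and it gave -0.65 without TCI04 replicate 3.

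Across all roles, 5 members (13.2%) had TCI04 arrays that lay below every PBS array, and 0 lay above. Of all tested genes, 6.92% were lower and 6.66% higher without overlap. The members are bright genes, with 27 of 38 in the top 3 deciles of mean signal and 12 in the top decile. Fold change moved with signal over the whole array. The median log2 fold change was -0.166 in the dimmest decile of genes, 0.035 in the ninth and 0.004 in the brightest. In the top 3 deciles, 17 of 27 members were lower (63.0%, median -0.042), against 37.8% of the genes there (median 0.024). There 2 members were lower without overlap (7.41%), against 3.31% of the genes.

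Each member was also set beside the 200 other genes nearest to it in mean signal. The fold change of 31 of the 38 members lay below the median of its nearest genes, and the median of these differences was -0.070. The nearest-gene medians ran from -0.070 to 0.044. The lowest of them belonged to NPM1, whose -0.13 was 0.060 below genes of like signal. NOC2L lay below its nearest genes by a difference of -0.70, POLR1A by -0.39 and PES1 by -0.41. DDX21 and NCL differed from theirs by -0.017 and -0.027.

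**Figure D4:**
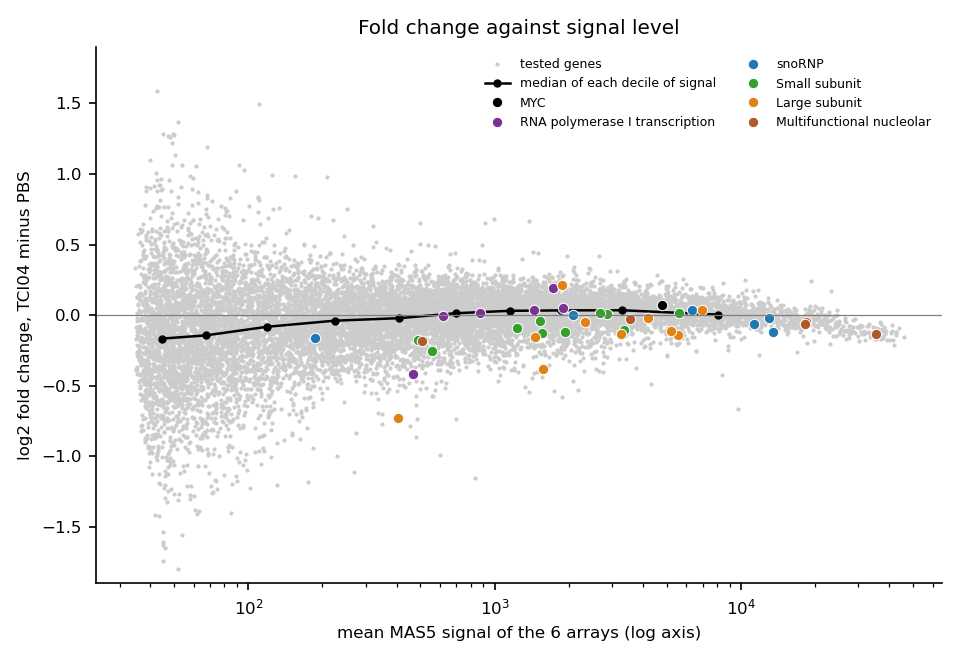
Log2 fold change (TCI04 minus PBS) against mean MAS5 signal (log axis) for 13679 tested genes in grey, the median of each decile of genes as a line, and the 38 members coloured by role. The line runs from -0.166 at the dimmest decile to 0.035 at the ninth, and 29 of the 38 members lie below the median of their own decile.

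The shift was present in each TCI04 array but differed in size. Against the PBS mean, the median of the members was -0.056, -0.014 and -0.084 in TCI04 replicates 1, 2 and 3, with 24 of 38 members below in each. The PBS arrays themselves had medians of -0.033, 0.034 and 0.004, with 21, 14 and 18 members below. PBS replicate 1 thus lay lower than TCI04 replicate 2. Without TCI04 replicate 3 the median of the members was -0.034, with 25 of 38 lower. By role the medians without it were 0.053 for RNA polymerase I transcription, -0.024 for snoRNPs, -0.065 for the small subunit, -0.027 for the large subunit and -0.054 for the multifunctional proteins, so the large subunit median moved most. When arrays were centred on their medians instead, the median over all genes moved to 0.157 and that of the members to 0.104. Then 7 members were lower and 31 higher, where 22.1% of all genes were lower. Relative to all genes the members stood at -0.053 under both scalings, with 26 of 38 below the median of all genes. Such centring shifts every gene by the same amount, so these 2 values could not differ between the scalings and are no second check.

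The members with several probe sets gave a second reading of the same RNA. For 20 members, 33 other probe sets passed the filter, of which 26 had a lower mean with TCI04 and 7 a higher one (median -0.128). The sign was that of the probe set used in 22 of 33. These are dimmer probe sets, and dim genes had a lower median in general. Of the 33, 5 were lower and 1 was higher without overlap, and 0 passed the adjusted threshold. Of all tested genes, 6.92% were lower and 6.66% higher without overlap. From the dimmest to the fifth decile of genes, 8.99% to 10.4% were lower and 1.97% to 6.21% higher without overlap.

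**Figure D5:**
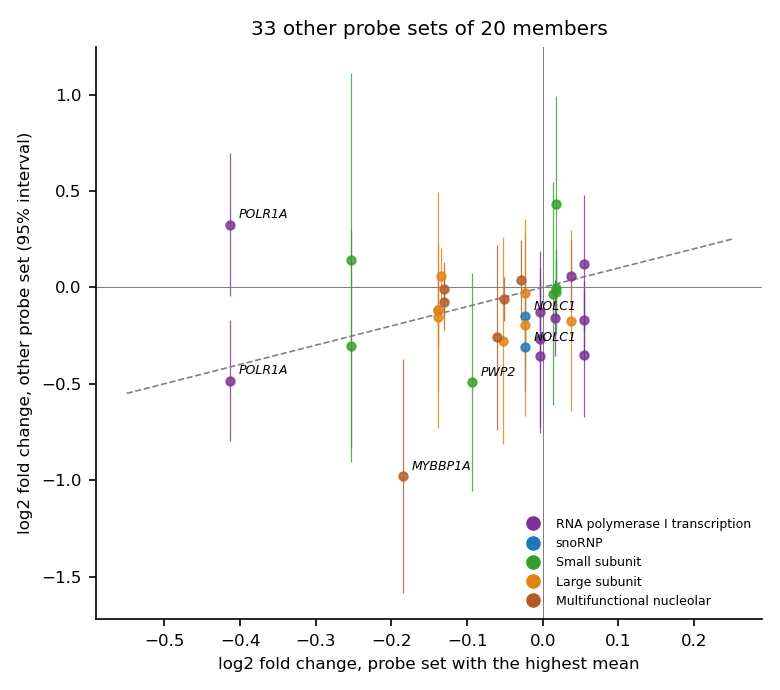
Log2 fold change (TCI04 minus PBS) of 33 other probe sets of 20 members, with the 95% interval, against that of the probe set with the highest mean for the same gene. The dashed line marks equal values. Probe sets of MYBBP1A (-0.98) and PWP2 (-0.49) lie below it, and those of POLR1A (0.33) and HEATR1 (0.43) lie above it. The further probe set of POLR1A (-0.48) lies near the line.

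Genes around the members were listed from textbook knowledge of the pathway. Of 90 measured other ribosome biogenesis factors, 50 had a lower mean with TCI04 (55.6%, against 50.6% of all tested genes, median -0.015). Of these 90, 6 were lower and 1 higher without overlap, against 6.92% and 6.66% of all tested genes, and 0 passed the adjusted threshold. REXO4 had 485, 483 and 415 with TCI04, against 547, 598 and 546 with PBS, a log2 fold change of -0.29. IMP4, a protein of the U3 particle, gave -0.28. Both brightest genes of this list, TRMT112 and RPF1, overlapped between the groups. CACGTG stood in 24 of 81 windows of these factors (29.6%), and within 50 bases of the start in 18 (22.2%). The 24 factors with CACGTG had a median of -0.071 with 18 lower, and the 54 measured factors without it had a median of -0.011 with 29 lower. The split did not recur in each list: MYC targets outside the nucleolus had medians of -0.040 for 10 genes with CACGTG and -0.092 for 8 without, and RNA polymerase III genes had -0.018 for 6 with and -0.022 for 9 without. The remaining lists had 1 or 2 measured genes with CACGTG. Without TCI04 replicate 3, 41 of the 90 were lower and the median was 0.006.

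Among 15 other subunits and factors of RNA polymerase I, 7 were lower, 3 of them without overlap, and the median was 0.000. POLR2E, a subunit shared by the nuclear RNA polymerases, had 4481, 4304 and 2289 with TCI04, against 4943, 4686 and 5264 with PBS, a log2 fold change of -0.49, or -0.175 without TCI04 replicate 3, which held the lowest value. TAF1D, a subunit of the promoter selectivity factor, gave 0.26. Of 20 measured RNA polymerase III subunits and factors, 12 were lower (median -0.036), with GTF3C3 higher without overlap at 0.16 and BRF2 lower without overlap at -0.22. The RNA exosome, which trims ribosomal RNA precursors, had 6 of 13 lower (median 0.030), with EXOSC5 at -0.22 and EXOSC8 at 0.11, both without overlap. None of these genes passed the adjusted threshold. Without overlap, the shares over all tested genes were 6.92% lower and 6.66% higher.

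MYC targets outside the nucleolus had a lower mean for 18 of 23 measured genes (78.3%, against 50.6% of all tested genes), with a median of -0.087. Without overlap, 5 were lower and 0 higher, where 6.92% of all tested genes were lower and 6.66% higher. Of the 23, 0 passed the adjusted threshold. This list was not set beside genes of like signal. HSPD1, a mitochondrial chaperone, had 28615, 30258 and 30903 with TCI04, against 32828, 35250 and 33334 with PBS, a log2 fold change of -0.18. SRM, which makes spermidine, gave -0.30, or -0.15 without TCI04 replicate 3, and the transferrin receptor TFRC gave -0.12. Without TCI04 replicate 3, 20 of the 23 were lower and the median was -0.070. The MYC network itself, of MAX and its other partners and regulators, had 5 of 12 lower (median 0.029), but this direction turned to 8 of 12 lower (median -0.048) without PBS replicate 1 and to 7 of 12 (median -0.029) without TCI04 replicate 2. The median was -0.029 with array weights, -0.019 with the mean of probe sets and -0.027 without _x_at and _s_at probe sets. ZBTB17, a partner through which MYC represses genes, gave -0.21 and overlapped between the groups.

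Failed ribosome assembly is known to leave RPL5, RPL11 and 5S RNA free to bind MDM2, which stabilises p53. MDA-MB-231 cells carry a mutant p53. Of 8 measured genes of this list, 4 were lower (median 0.024) and 0 were without overlap. The shares without overlap over all tested genes were 6.92% lower and 6.66% higher. RPL11 gave -0.076, MDM2 gave -0.032 (0.023 without TCI04 replicate 3) and the p53 target RRM2B gave 0.21. The array also carries control probe sets for mature ribosomal RNA, which poly(A)-primed labelling captures poorly. For all 3 probe sets of 18S RNA the TCI04 arrays lay below the PBS arrays without overlap. The 5' one had 8709, 9319 and 1744 with TCI04, against 14008, 11910 and 10679 with PBS. TCI04 replicate 3 was far below the others, and the remaining TCI04 arrays were still below every PBS array. The 5' probe set of 28S RNA was also lower without overlap, at 13742, 13182 and 6013 with TCI04, against 16287, 16554 and 15716 with PBS, while its middle and 3' probe sets overlapped. The ACTB 3' control was also lower without overlap, at 35242, 36741 and 36606 with TCI04, against 36824, 40416 and 37921 with PBS. So was the ACTB 5' control, at 20626, 21566 and 10981 with TCI04, against 22439, 23456 and 23138 with PBS, while the middle one overlapped. The part of RNA quality in these signals was not tested.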

How the data were processed

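The authors deposited a linear intensity for each probe set on each array, made with MAS5 per the submitters' processing notes. The MAS5 version and detection calls are not given in the sources used here. Their table holds 54675 probe sets, 62 of them controls. Platform annotation gave 1 symbol for 41097, several for 1801 and none for 11777.

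An offset of 10.96 (20th percentile of the table) was added to each signal before taking log2. The filter kept 32746 probe sets whose mean log2 value reached the 40th percentile, equal to a signal of 33.9. limma 3.58.1 in R 4.3.3 was fitted to all 6 arrays (lmFit, then eBayes with trend, TCI04 minus PBS, two-sided), with Benjamini-Hochberg adjustment over the 32746 probe sets at a threshold of 0.05. Intervals of 95% used 10.5 degrees of freedom. For each gene the brightest tested probe set was used. Separate cultures are not stated in the labels, so the p-values reflect the spread among these 6 arrays, possibly technical, and 3 arrays a group limit the precision. Probe sets ending in _s_at or _x_at can match several transcripts, and MYC, NOC2L, NPM1 and NCL are among members measured by such a probe set. MYC and NOC2L had no other tested probe set.

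Members, roles and lists were chosen with earlier results of these data known. Values in every array are given for MYC, for the 2 brightest members of each role and for members whose groups do not overlap. From the other lists, up to 2 genes with the smallest p and the 2 brightest could be named. Alternatives were other scalings, offsets, filters, probe set rules, limma settings, array weights, a block for the replicate number, and each array left out. The steps were tested on simulated data. Signal was used to rank and match genes by brightness. It was not read as transcript abundance between genes, since probes differ.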

Additional observations from a re-analysis of the deposited data

Results flagged for a closer look

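2 dim probe sets that no comparison uses, because they lie below the filter on low signals, had TCI04 signals that lay above all PBS signals. A probe set of RRP12, the small subunit export factor, had a lowest TCI04 signal of 36.68, with 37.3, 40 and 36.7 in the TCI04 arrays, against 17.4, 20.7 and 35.2 in the PBS arrays. The brightest probe set of RRP12 gave a log2 fold change of -0.25. A probe set of DDX10, a helicase of small subunit assembly, had a lowest TCI04 signal of 5.267, with 7.71, 10.6 and 5.27 in the TCI04 arrays, against 2.77, 4.71 and 2.42 in the PBS arrays. The brightest probe set of DDX10 gave 0.007. Every signal of this dim DDX10 probe set lay below the offset of 10.96 that was added before log2. Both dim probe sets were found by their separation among 9 member probe sets below the filter, and no test was made of them. With no filter, 5.53% of genes were higher without overlap, counted by the brightest probe set of each gene. The share over all probe sets below the filter was not taken.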

How the results depend on the processing

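No member passed the adjusted threshold in any of 18 alternatives. Of 674 member values 614 kept their sign, and 7 members kept it throughout. Centring arrays on their medians raises the log2 fold change of every gene by the same amount, and the values turned under it follow from that step. The cause of the other changes below was not tested. With arrays centred on their medians, 7 members were lower and 31 higher, where 22.1% of all genes were lower. Without overlap, 2 members were lower and 9 higher, against 1.7% and 29.1% of all genes. The member median was 0.104, and the medians of members with and without CACGTG were 0.043 and 0.130. The turned values under this centring were 0.155 for UBTF, 0.094 for FBL, 0.040 for NHP2, 0.137 for NOLC1, 0.037 for WDR43, 0.067 for PWP2, 0.055 for UTP20, 0.117 for NOP14, 0.041 for BYSL, 0.044 for NOC3L, 0.007 for NOP2, 0.021 for NOP16, 0.136 for WDR12, 0.108 for MRTO4, 0.025 for NIP7, 0.029 for NPM1, 0.1 for NCL, 0.109 for DDX21 and 0.130 for LYAR. Quantile normalization gave 0.012 for UBTF, -0.014 for GAR1, -0.015 for HEATR1 and -0.021 for DDX10. The mean of probe sets gave -0.085 for POLR1B, -0.071 for TCOF1, -0.010 for WDR3, -0.068 for RRP1B and 0.005 for LYAR, and a member median of -0.095. Without _x_at and _s_at probe sets 28 members were left, with a median of -0.099. Of these, 3 were lower without overlap, against 7.0% of the genes in this setting. In it HEATR1 gave -0.001, WDR3 -0.034 and RRP12 0.140. Array weights gave -0.008 for POLR1C, 0.058 for UBTF and -0.034 for DDX10.

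Leaving out 1 array gave 22 to 29 lower and 9 to 16 higher members, a median from -0.088 (without PBS replicate 1) to -0.034 (without TCI04 replicate 3), 6 to 11 lower and 0 to 2 higher without overlap, and 0 to 1 probe sets called lower. With fewer arrays non-overlap is more common, at 11.1% to 13.7% of genes on the lower side and 9.93% to 13.3% on the higher side. The log2 fold change ran from -0.033 to 0.088 for POLR1C, -0.118 to 0.086 for UBTF, -0.025 to 0.083 for TCOF1, -0.013 to 0.077 for NOP58, -0.35 to 0.018 for RRP9, -0.069 to 0.043 for GAR1, -0.059 to 0.020 for NOLC1, -0.023 to 0.044 for HEATR1, -0.008 to 0.041 for WDR3, -0.159 to 0.026 for NOP14, -0.037 to 0.045 for DDX10, -0.258 to 0.030 for NOP2, -0.589 to 0.016 for PES1 and -0.103 to 0.042 for LYAR. The call of 1 probe set (FOS, no member) was lost (0 called) under median centring, in eBayes without trend and with any array but TCI04 replicate 3 left out. With the replicate number as a block the member median was -0.056 and 0 members were called (smallest adjusted p = 0.344, limma). The deviations of same-numbered arrays correlated at 0.004, 0.062 and 0.050, and those of differently numbered arrays at -0.061 to 0.009. The labels do not say what a replicate number shares, so whether the arrays are paired remains unknown. The adjusted p of NOC2L ranged from 0.193 to 0.809 over the alternatives in which it was measured.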
